A study of Mus musculus with 12 samples.

Results

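The mitosis and cytokinesis genes described here are 44 mouse genes of G2/M control, the spindle, the kinetochore and cell cleavage, chosen by name: a row of the count table belongs to the set if its Ensembl identifier maps to 1 of the 44 listed symbols. All 44 symbols were found, 1 row each, among the 55414 identifiers of the table, and all 44 were among the 14919 genes tested. The low-count filter would have kept 43 of them on the WT libraries alone; the exception is Cdc25c. RNA was sequenced from primary hepatocytes of the mouse, the cells that make up most of the liver's mass, in 12 libraries. The wild-type (WT) hepatocytes were given either the DMSO vehicle (3 libraries) or MJ041 (3 libraries). The Hnf4a knockout (KO) hepatocytes were given the same vehicle (3 libraries) or MJ041 (3 libraries). HNF4A is a transcription factor of the nuclear receptor family on which many hepatocyte genes depend. MJ041 is a compound of which only the code name is known, and the series title presents it as a candidate ligand. The labels give no dose or time of treatment, no sex or age of the animals, and no account of how the knockout was made or which exons it removes. They do not say that replicates came from separate animals or cultures, so p-values measure only the spread between these samples.

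Most hepatocytes of the adult liver are out of the cell cycle and can enter it again, for example when liver tissue is lost. At entry into mitosis, cyclin-dependent kinase 1 with cyclin B sets off chromosome condensation and spindle assembly. The spindle checkpoint then holds the anaphase-promoting complex until chromosomes are attached, and after chromosome separation a contractile ring cleaves the cell. Hepatocytes often skip that last step, which leaves many of them with extra genome copies. The transcripts of these steps are made late in the cell cycle, under the transcription factors FOXM1 and B-MYB and a group of repressor and activator complexes that bind short promoter elements.

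In every library the targeted gene was still counted. Hnf4a stood at 121, 137 and 112 CPM in WT with vehicle and 61.1, 67.8 and 66.4 CPM in KO with vehicle. The MJ041-treated libraries held 166, 178 and 142 CPM in WT and 59.9, 76 and 66.7 CPM in KO. All 6 KO libraries lay below all 6 WT libraries, and with vehicle the log2 fold change was -0.92 ± 0.10 (SE, n = 3; edgeR adjusted p = 8.9e-06). The libraries held 16740761 to 17902832 counts, of which the 44 genes took 0.0203% to 0.0245% in WT and 0.0702% to 0.131% in KO. The hepatocyte markers (7 of the 8 listed were matched) summed to 48091 to 52401 CPM in WT with vehicle and to 21465 to 25140 CPM in KO with vehicle, and with MJ041 to 49228 to 63186 CPM in WT and 22227 to 23508 CPM in KO. Of those 7 hepatocyte markers, 4 fell and 1 rose in KO with vehicle at an edgeR adjusted p below 0.05. The shares of all tested genes were 26.9% and 27.5%. The log2 fold changes of the 7 ran from -5.84 to 0.99, with a median of -0.45. CPM is the read count scaled to library size with TMM factors.

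In the vehicle-treated cells, 43 of the 44 genes rose in KO against WT and 0 fell, with an edgeR adjusted p below 0.05 over all tested genes. There were also 0 lower at an unadjusted p below 0.05 (4383 of all tested genes) and 0 in DESeq2 (3896 of all tested genes). Of all 14919 tested genes, 27.5% rose and 26.9% fell in this comparison. The median log2 fold change of the 44 genes was 2.44, beside -0.002 over all tested genes. Increases of at least 2-fold were called for 38 of the 44 (9.03% of all genes) and of at least 4-fold for 26 (3.07% of all genes). Fold differences ran from 1.44 for Ccnb2, the gene that did not pass, to 12.2 for Kif11. The 3 vehicle-treated KO libraries all lay above the 3 vehicle-treated WT libraries for 43 genes, which holds for 31.6% of all tested genes. Over both treatments, all 6 KO libraries lay above all 6 WT libraries for 43 genes, beside 21.6% of all tested genes, and Ccnb2 was again the exception. Summed over the 44 genes, the level was 226, 246 and 229 CPM in WT with vehicle and 786, 1053.7 and 861 CPM in KO with vehicle. In bulk samples more cells in mitosis and more RNA per cell cannot be told apart, nor can hepatocytes be told from other cells of the preparation.

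**Figure D1:**
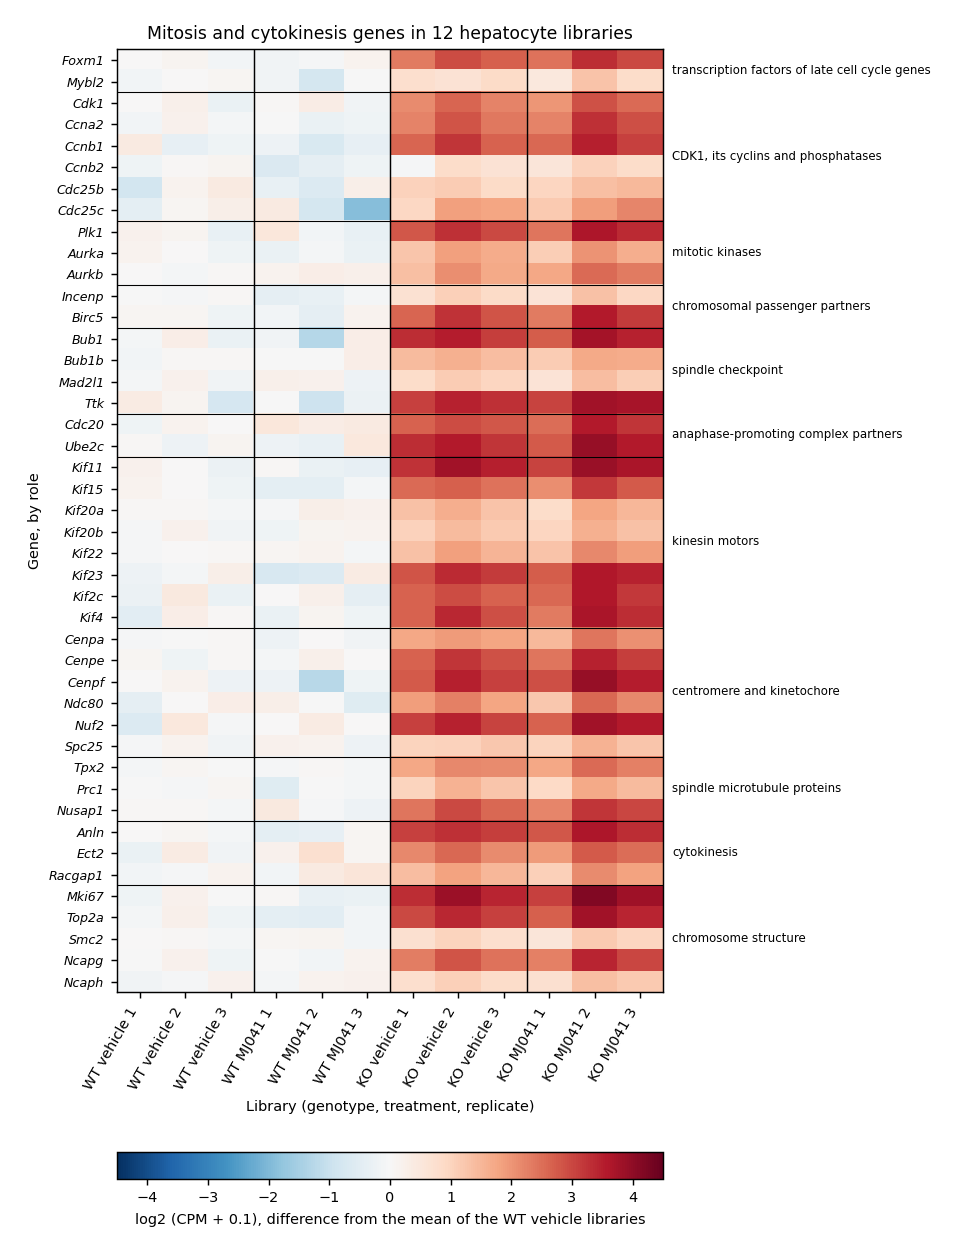
Level of each of the 44 genes (rows, ordered by role) in each of the 12 libraries (columns), as the difference in log2 (CPM + 0.1) from the mean of the 3 WT vehicle libraries. The KO columns are red in nearly every row and the WT columns near white, with Ccnb2 in KO vehicle replicate 1 as a KO value close to 0.

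Promoter sequence was looked at because the genes moved together and their class is known for shared promoter elements. The cell cycle homology region (CHR) is a short element bound by these complexes, and the CCAAT box, bound by NF-Y, often lies near it. A RefSeq promoter entry (build GRCm38.p6) was found for 37 of the 44 genes, and the 250 bases before each start were searched on both strands for CHR letters and for CCAAT. The CHR letters searched were TTTGAA and, as a variant form, the string TTCGAA, which reads the same on both strands and was counted once. None of these strings contains another. CHR letters were present in 15 of the 37 genes (40.5%), beside 19.6% of all 27025 genes of the table with windows of the same length. CCAAT was present in 26 of the 37 (70.3%), beside 37.5% of all genes, and at least 2 CCAAT in 16 (43.2%), beside 11.5%. Genes that stood at least 4-fold higher in KO with vehicle held CHR letters in 10 of 23 cases (43.5%), and those under 4-fold in 5 of 14 (35.7%). A match is a description of the letters and not a bound site.

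The windows of Top2a, Mki67, Smc2 and Ect2 are printed. They are the 4 genes with CHR letters and the highest mean CPM in KO with vehicle, leaving out windows that run into an exon of the same gene, and they differ in their fold in KO: 8.96 for Top2a, 12 for Mki67, 1.78 for Smc2 and 5.01 for Ect2. Each sequence runs 5′ to 3′ on the gene's own strand and ends just before the start given by the promoter entry. The bases after that start were found in an annotated transcript of the gene for Top2a and Ect2, and not for Mki67 and Smc2. Capitals mark CHR letters and CCAAT on either strand. On the opposite strand CCAAT reads ATTGG, and the first CHR form is there read as TTCAAA. Top2a lies at chr11:99024190-99024439 on the minus strand, Mki67 at chr7:135716380-135716629 on the minus strand, Smc2 at chr4:52438971-52439220 on the plus strand and Ect2 at chr3:27153879-27154128 on the minus strand, all in GRCm38.p6.
Top2a: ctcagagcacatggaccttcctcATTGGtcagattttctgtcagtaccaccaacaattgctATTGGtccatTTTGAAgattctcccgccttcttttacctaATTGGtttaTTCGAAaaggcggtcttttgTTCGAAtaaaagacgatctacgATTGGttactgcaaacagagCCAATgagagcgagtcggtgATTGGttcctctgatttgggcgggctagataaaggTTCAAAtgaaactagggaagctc
Mki67: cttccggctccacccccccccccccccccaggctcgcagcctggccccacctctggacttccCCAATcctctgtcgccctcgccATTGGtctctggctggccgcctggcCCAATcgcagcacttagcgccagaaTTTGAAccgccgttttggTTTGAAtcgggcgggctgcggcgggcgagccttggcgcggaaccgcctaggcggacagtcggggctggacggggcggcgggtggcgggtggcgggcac
Smc2: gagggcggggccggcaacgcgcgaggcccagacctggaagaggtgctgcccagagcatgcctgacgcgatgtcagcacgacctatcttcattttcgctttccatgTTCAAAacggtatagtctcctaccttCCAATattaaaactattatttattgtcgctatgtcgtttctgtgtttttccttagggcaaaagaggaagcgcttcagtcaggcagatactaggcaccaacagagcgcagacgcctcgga
Ect2: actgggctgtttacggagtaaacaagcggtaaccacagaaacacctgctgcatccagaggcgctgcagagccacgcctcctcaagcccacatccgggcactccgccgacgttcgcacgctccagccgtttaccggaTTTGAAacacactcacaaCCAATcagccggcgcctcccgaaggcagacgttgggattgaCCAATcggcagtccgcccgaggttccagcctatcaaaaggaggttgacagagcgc
The Top2a window holds 4 CHR matches and 6 CCAAT matches, and the Mki67 window holds 2 and 3. The Ect2 window holds 1 CHR match and 2 CCAAT matches, and the Smc2 window holds 1 of each.

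Both transcription factors of the late cell cycle rose with vehicle. Foxm1 (ENSMUSG00000001517), which activates genes of G2 and mitosis, stood at 3.3, 3.58 and 2.98 CPM in WT with vehicle and 17.1, 26 and 21.9 CPM in KO with vehicle. Under MJ041 the WT values were 2.9, 3.2 and 3.67 CPM and the KO values 18.3, 34 and 26.2 CPM. Its KO values lay far above its WT values in both treatments, with no overlap. The log2 fold change was 2.72 ± 0.23 with vehicle (SE, n = 3; adjusted p = 8.4e-07) and 3.00 ± 0.23 with MJ041 (adjusted p = 3.6e-07). Mybl2, which encodes B-MYB, rose from 4.27 to 7.31 CPM (1.71-fold). Its adjusted p was 0.011, and it was not called when KO vehicle replicate 3 was left out.

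Of the 6 genes of CDK1, its cyclins and its phosphatases, 5 rose with vehicle. Cdk1 (ENSMUSG00000019942), the kinase that drives entry into mitosis, stood at 6.03, 6.98 and 4.86 CPM in WT with vehicle and 26.1, 36.9 and 28.6 CPM in KO with vehicle. With MJ041 it stood at 6.12, 7.51 and 5.32 CPM in WT and 23.8, 44.1 and 35.2 CPM in KO. The lowest KO library lay above the highest WT library by more than the whole spread of the WT libraries. With vehicle, the log2 fold change was 2.36 ± 0.23 (SE, n = 3; edgeR adjusted p = 2.5e-06). Ccna2, the cyclin of S phase and G2, rose from 4.19 to 24.1 CPM (5.76-fold), and Ccnb1, the main mitotic cyclin, from 0.951 to 7.45 CPM (7.76-fold). Cdc25b and Cdc25c encode phosphatases that activate CDK1, and they rose 2.09-fold and 3.34-fold from low levels. Cdc25c rested on the fewest counts of the 44, 26 over the 3 WT vehicle libraries and 88 over the 3 KO vehicle libraries. Over the 6 WT libraries of both treatments it spread most of the 44, with the highest 11.5 times the lowest. These were WT MJ041 replicates 1 and 3, at 0.680 and 0.0591 CPM.

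Ccnb2 (ENSMUSG00000032218), the second mitotic B-type cyclin, was the gene that did not pass. It stood at 3.64, 4.3 and 4.58 CPM in WT with vehicle and 4.06, 7.44 and 6.58 CPM in KO with vehicle. KO replicate 1 lay among the WT values and the other two KO libraries above them. The log2 fold change was 0.53 ± 0.22 (adjusted p = 0.062). It passed in 4 of 20 alternative settings, among them the fit without KO vehicle replicate 1 (log2 fold change 0.71, adjusted p = 0.011). With MJ041, Ccnb2 stood at 2.6, 3.14 and 3.61 CPM in WT and 6.12, 8.58 and 7.42 CPM in KO, without overlap, and rose by 1.24 ± 0.23 (adjusted p = 0.00051).

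All 3 mitotic kinases rose with vehicle. Plk1 (ENSMUSG00000030867), which acts at centrosomes, kinetochores and the cleavage site, stood at 1.65, 1.55 and 1.1 CPM in WT with vehicle and 10.6, 14.8 and 11.9 CPM in KO with vehicle. The MJ041-treated libraries held 2.1, 1.29 and 1.12 CPM in WT and 8.07, 18.8 and 15.7 CPM in KO. The KO and WT libraries did not overlap, and KO with MJ041 held both the lowest and the highest KO value. In edgeR this was a log2 fold change with vehicle of 3.11 ± 0.33 (adjusted p = 4.8e-06). Aurka, the centrosome kinase, rose from 4.33 to 13.5 CPM (3.11-fold), and Aurkb, the catalytic subunit of the chromosomal passenger complex, from 3.14 to 10.8 CPM (3.42-fold).

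Both other genes of the passenger complex rose with vehicle. Birc5 (ENSMUSG00000017716), which encodes survivin, stood at 2.39, 2.39 and 1.93 CPM in WT with vehicle and 14.3, 21.9 and 16.6 CPM in KO with vehicle. Under MJ041 the WT values were 2.04, 1.66 and 2.48 CPM and the KO values 11.8, 27.3 and 20.7 CPM. No KO library came near the WT range, and the log2 fold change with vehicle was 2.98 ± 0.30 (adjusted p = 3.1e-06). Incenp, the scaffold of the same complex, rose from 21.4 to 39.6 CPM (1.86-fold). Within this complex of 3 listed genes the fold was thus 7.87 for Birc5, 3.42 for Aurkb and 1.86 for Incenp.

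All 4 spindle checkpoint genes rose with vehicle. Ttk (ENSMUSG00000038379), which encodes the kinase MPS1 at the top of the checkpoint, stood at 1.08, 0.895 and 0.442 CPM in WT with vehicle and 7.48, 9.82 and 8.7 CPM in KO with vehicle. With MJ041 it stood at 0.803, 0.369 and 0.651 CPM in WT and 7.42, 12.4 and 11.7 CPM in KO. WT libraries were at or near 1 CPM and below, and every KO library was above 7 CPM. With vehicle, the log2 fold change was 3.42 ± 0.31 (SE, n = 3; edgeR adjusted p = 1.3e-06). Bub1, a checkpoint kinase of the kinetochore, rose from 0.902 to 9.94 CPM (11-fold). Bub1b, which encodes the checkpoint protein BUBR1, rose from 7.9 to 22.1 CPM (2.8-fold), and Mad2l1, which encodes MAD2 that binds CDC20, from 13.5 to 26.9 CPM (1.99-fold).

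Both partners of the anaphase-promoting complex in the list rose with vehicle. Ube2c (ENSMUSG00000001403), its ubiquitin-conjugating enzyme, stood at 1.48, 1.19 and 1.55 CPM in WT with vehicle and 14.8, 17.8 and 13.9 CPM in KO with vehicle. The MJ041-treated libraries held 1.17, 1.11 and 2.01 CPM in WT and 10.01, 22.7 and 17.7 CPM in KO. The lowest KO value was several times the highest WT value. In edgeR this was a log2 fold change with vehicle of 3.45 ± 0.31 (adjusted p = 1.2e-06). Cdc20, the activator that the checkpoint restrains, rose from 1.43 to 10.6 CPM (7.38-fold).

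All 8 kinesin motors rose with vehicle, by 2.34-fold (Kif20b) to 12.2-fold (Kif11). Kif11 (ENSMUSG00000012443), the motor that pushes spindle poles apart, stood at 1.71, 1.49 and 1.21 CPM in WT with vehicle and 15, 21.3 and 17.6 CPM in KO with vehicle. Under MJ041 the WT values were 1.55, 1.17 and 1.12 CPM and the KO values 12.9, 22.8 and 19.99 CPM. The WT libraries lay within 1 CPM of each other and the KO libraries were all above 12 CPM. Kif23, a motor of the central spindle, rose from 1.27 to 11.9 CPM (9.25-fold). Kif4, a chromosome motor, rose from 1.63 to 13.9 CPM (8.51-fold), and Kif2c, which takes microtubules apart at centromeres, from 0.981 to 7.17 CPM (7.3-fold). Kif15, which shares spindle work with Kif11, rose from 1.72 to 10.7 CPM (6.19-fold). Kif22, a motor on chromosome arms, rose from 4.9 to 14.9 CPM (3.03-fold). Kif20a and Kif20b, which act at the central spindle and in cleavage, rose 2.7-fold and 2.34-fold.

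All 6 genes of the centromere and kinetochore rose with vehicle. Cenpe (ENSMUSG00000045328), the motor that brings chromosomes to the spindle equator, stood at 3.01, 2.45 and 2.93 CPM in WT with vehicle and 18.3, 26.5 and 20.9 CPM in KO with vehicle. With MJ041 it stood at 2.66, 3.26 and 2.84 CPM in WT and 15.1, 31.7 and 24.8 CPM in KO. The groups of the 2 genotypes did not overlap, and the log2 fold change with vehicle was 2.96 ± 0.25 (adjusted p = 9.6e-07). Cenpf, a large protein of the outer kinetochore, rose from 1.17 to 11.2 CPM (9.52-fold). Cenpa, the histone that marks centromeres, rose from 4.27 to 15.3 CPM (3.58-fold). Ndc80, Nuf2 and Spc25 encode subunits of a single microtubule-binding complex, yet their folds were 4.14, 10.1 and 2.15. In WT with vehicle Spc25 stood at 2.12 CPM per kilobase of exon, against 0.261 for Ndc80 and 0.145 for Nuf2.

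The 3 spindle microtubule proteins and the 3 cytokinesis genes all rose with vehicle. Tpx2 (ENSMUSG00000027469), which activates Aurora A on the spindle, stood at 5.57, 6.45 and 5.96 CPM in WT with vehicle and 20.3, 27.5 and 26.3 CPM in KO with vehicle. The MJ041-treated libraries held 5.75, 6.28 and 5.62 CPM in WT and 20.5, 35.5 and 29.2 CPM in KO. Every KO library was at least 3 times the highest WT library, and the log2 fold change with vehicle was 2.04 ± 0.19 (adjusted p = 1.5e-06). Nusap1, which bundles spindle microtubules, rose from 1.49 to 10.1 CPM (6.74-fold), and Prc1, the bundler of the central spindle, from 26.7 to 65.1 CPM (2.44-fold). Anln (ENSMUSG00000036777), the anillin scaffold of the contractile ring, stood at 5.17, 5.49 and 4.8 CPM in WT with vehicle and 44.1, 51.2 and 44.9 CPM in KO with vehicle. Under MJ041 the WT values were 3.77, 4.003 and 5.44 CPM and the KO values 36.3, 64.7 and 52.1 CPM. Anln had the smallest adjusted p of the 44 (5.8e-08), and its WT and KO libraries were far apart. Ect2, which switches on the small GTPase RHOA at the cleavage site, rose from 5.66 to 28.3 CPM (5.01-fold), and Racgap1, its partner at the central spindle, from 7.29 to 21.9 CPM.

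The 5 genes of chromosome structure rose with vehicle, with folds that fell into a wide range. Mki67 (ENSMUSG00000031004), which coats mitotic chromosomes and gives the proliferation marker Ki-67, stood at 5.003, 6.45 and 5.58 CPM in WT with vehicle and 58.3, 83.9 and 61.9 CPM in KO with vehicle. With MJ041 it stood at 5.87, 4.5 and 4.61 CPM in WT and 49.2, 104 and 80.8 CPM in KO. No KO library was below 49 CPM and no WT library reached 7 CPM. With vehicle, the log2 fold change was 3.58 ± 0.26 (SE, n = 3; edgeR adjusted p = 2.5e-07). Top2a, the topoisomerase that untangles sister chromatids, rose from 7.77 to 69.5 CPM (8.96-fold). Among the condensin genes, Ncapg rose 6.11-fold, while Ncaph of the same complex rose 1.87-fold and Smc2, a subunit of both condensins, 1.78-fold.

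**Figure D2:**
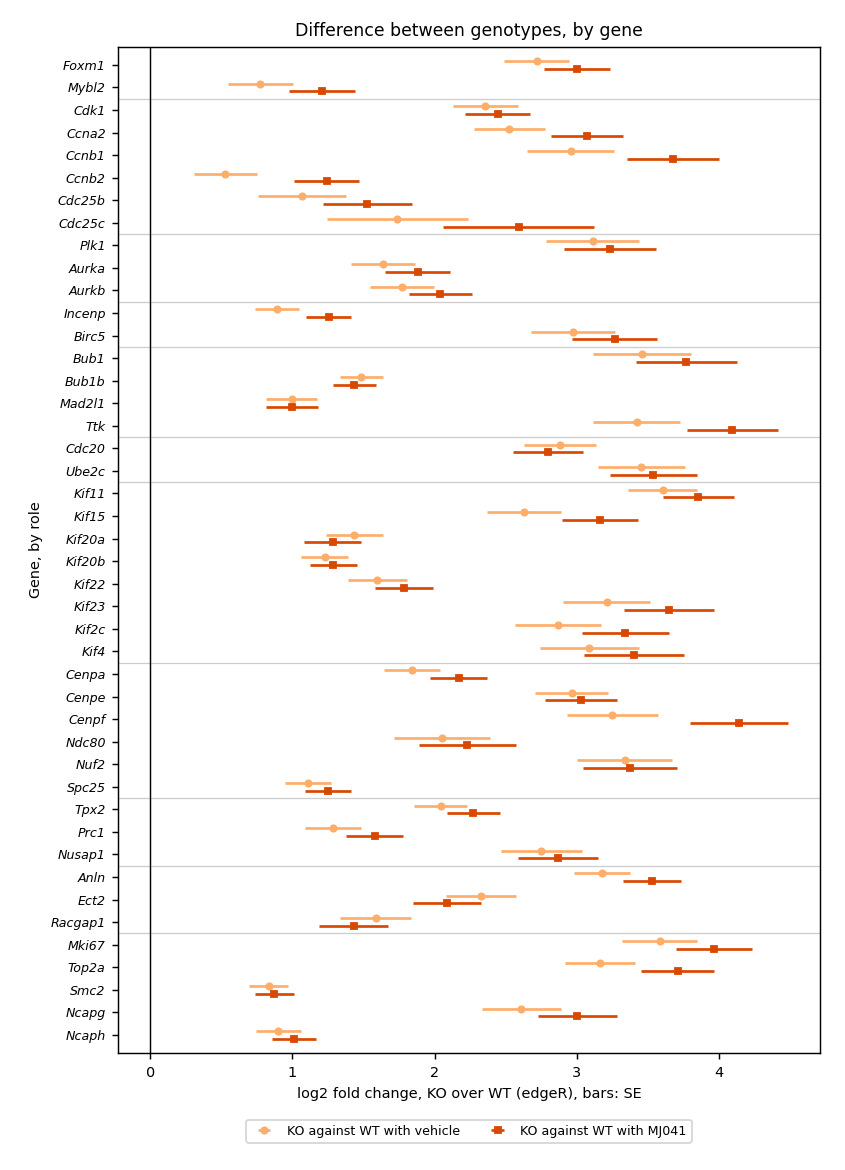
Log2 fold change of KO over WT for each of the 44 genes, ordered by role as in the heat map, with vehicle (light circles) and with MJ041 (dark squares); bars are the SE from edgeR with 3 libraries per group. All values lie right of 0, from 0.53 (Ccnb2) to 3.60 (Kif11) with vehicle.

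Genes that stood high in WT cells had the smaller folds. To compare levels between genes, CPM was divided by the number of bases covered by any annotated exon of the gene in GENCODE M21. That length takes in all transcripts of a gene and can exceed that of any single transcript. Over the 44 genes the WT vehicle level per kilobase and the log2 fold change with vehicle had a Spearman rho of -0.74, a description across genes that are not independent and in which both measures share the WT libraries. The 11 genes highest per kilobase in WT (1.39 to 5.01 CPM per kilobase) stood a median of 2.15-fold higher in KO, counting Ccnb2, which did not pass. They are Smc2, Incenp, Prc1, Ccnb2, Ncaph, Spc25, Bub1b, Aurka, Kif20a, Mad2l1 and Kif20b. The 11 lowest (0.0756 to 0.261 CPM per kilobase) had a median of 9.25-fold, and the 22 in between one of 6.35-fold. Cdc25b and Mybl2 were low or intermediate in WT and had folds of only 2.09 and 1.71. In KO cells with vehicle Incenp, Smc2 and Prc1 were still the highest per kilobase, and Top2a and Mki67 came next.

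**Figure D3:**
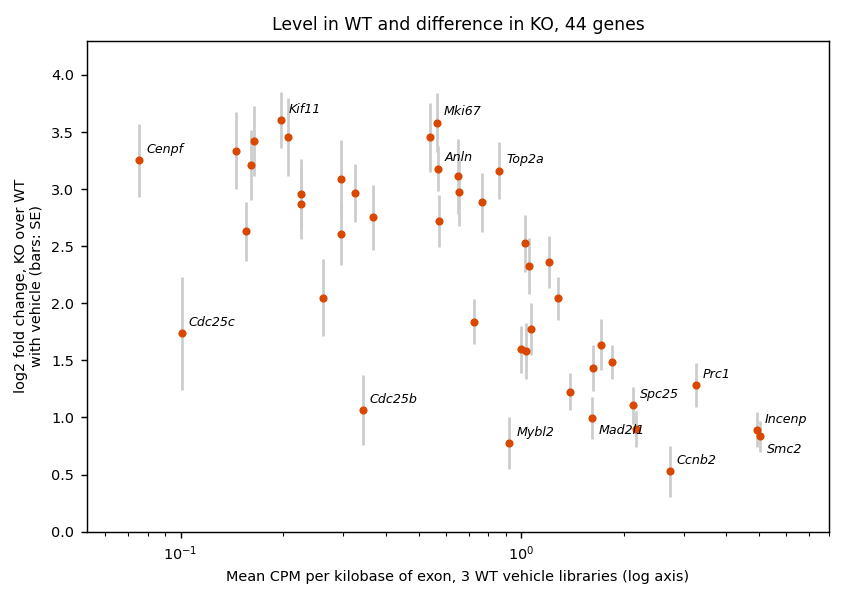
Mean level in the 3 WT vehicle libraries, in CPM per kilobase of exon on a log axis, against the log2 fold change of KO over WT with vehicle for the 44 genes; bars are SE. The genes farthest right, Smc2 and Incenp, have log2 fold changes under 1, Prc1, the next, has 1.28, and most genes under 0.5 CPM per kilobase have log2 fold changes above 2, with Cdc25b and Cdc25c below.

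With MJ041 in both genotypes, all 44 genes rose in KO against WT, beside 26.8% of all tested genes that rose and 27.6% that fell. The median log2 fold change was 2.69, with 42 genes at least 2-fold higher (9.56% of all genes) and 29 at least 4-fold higher (3.36%), and edgeR adjusted p from 2.8e-08 to 0.0011. These 6 libraries are not those of the vehicle comparison. Cdc25b was not called when WT MJ041 replicates 1 and 2, which are low in stellate cell markers, were left out. The fold was larger with MJ041 than with vehicle for 39 of the 44 genes (47.0% of all tested genes). In edgeR, 0 of the 44 passed the test of that difference (lowest adjusted p = 0.36), beside 0% of all tested genes. In DESeq2, 0 of the 44 passed, beside 76 of all tested genes called higher and 142 lower. At an unadjusted p below 0.05 in edgeR there was 1, Ccnb2, beside 13.3% of all genes. Its difference in log2 fold change was 0.71 ± 0.32 (edgeR adjusted p = 0.36). The next were Cenpf at 0.89 ± 0.50 (adjusted p = 0.46) and Incenp at 0.36 ± 0.22 (adjusted p = 0.5). The median difference over the 44 genes was 0.28, and it was 0.06 without KO MJ041 replicate 2 and 0.51 without KO MJ041 replicate 1.

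MJ041 against vehicle in WT cells called 0 of the 44 genes in either direction in edgeR, beside 1.19% of all genes higher and 1.02% lower. Those shares, 329 genes in all, rested on single libraries: the count was 0 without WT vehicle replicate 1, WT MJ041 replicate 2, KO vehicle replicate 1 or 3, or KO MJ041 replicate 3, and 2059 without WT MJ041 replicate 3, with 0 of the 44 called each time. It also fell to 31 without WT vehicle replicate 3, 49 without WT MJ041 replicate 1, 108 without KO vehicle replicate 2, 210 without KO MJ041 replicate 1 and 163 without KO MJ041 replicate 2, and rose to 574 without WT vehicle replicate 2. The comparison shares its WT vehicle libraries with that of KO against WT. At an unadjusted p below 0.05 there were also 0, where 21.6% of all tested genes had such a p. DESeq2 called 0 of the 44, beside 472 of all tested genes higher and 422 lower. The summed level was 217, 235 and 230 CPM with MJ041, which overlaps the 226, 246 and 229 CPM with vehicle. By sign, 19 log2 fold changes were above 0 (55.6% of all genes) and 25 below, with a median of -0.06. The smallest p-values were those of Ccnb2 (log2 fold change -0.42 ± 0.24, edgeR adjusted p = 0.33), Incenp (-0.27 ± 0.16, adjusted p = 0.36) and Cdc20 (0.46 ± 0.29, adjusted p = 0.4). Vehicle and MJ041 libraries did not overlap for 4 of the 44 genes, beside 22.3% of all genes: Ccnb2 and Incenp were lower in each MJ041 library, and Aurkb and Cdc20 higher.

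In KO cells MJ041 against vehicle also called 0 of the 44 genes in edgeR and DESeq2. Of all tested genes, edgeR called 0%, and DESeq2 called 1 higher and 0 lower. By sign, 43 of the 44 log2 fold changes were above 0 (52.4% of all genes), with a median of 0.19 against 0.01 over all genes. That median rested on single libraries: it was -0.06 without KO MJ041 replicate 2, 0.40 without KO MJ041 replicate 1, 0.08 without KO vehicle replicate 1 and 0.32 without KO vehicle replicate 2. Aurkb alone had an unadjusted p below 0.05, beside 2.77% of all genes, with a log2 fold change of 0.50 ± 0.20 (edgeR adjusted p = 1). It stood at 8.17, 13.7 and 10.5 CPM with vehicle and 10.7, 18.7 and 16.1 CPM with MJ041, and the lowest MJ041 library lay inside the vehicle range. Kif2c (0.44 ± 0.25) and Cdc20 (0.37 ± 0.21) had the next smallest p-values, both with an adjusted p of 1. The libraries of both treatments overlapped for all 44 genes, and did not for 9.51% of all tested genes.

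The KO libraries of 1 treatment differed from each other in nearly the whole set at once. Among the 3 vehicle libraries replicate 2 was the highest for 42 of the 44 genes, and among the 3 MJ041 libraries replicate 2 was also the highest for 42. Over all tested genes these libraries were the highest of their group for 36.6% and 38.4%. KO MJ041 replicate 1 was the lowest of its group for all 44 genes, beside 37.3% of all tested genes, and KO vehicle replicate 1 for 33, beside 36.8%. The summed level was 692, 1299 and 1053.4 CPM with MJ041. The 6 KO libraries spread by 1.49 times (Bub1b) to 2.61 times (Ndc80) between the lowest and the highest, with a median of 1.96 over the 44 genes.

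Other lists moved with this spread. In KO vehicle replicates 1, 2 and 3 the mean log2 deviation of the 44 genes from the 6 KO libraries was -0.270, 0.157 and -0.122, and in KO MJ041 replicates 1, 2 and 3 it was -0.433, 0.474 and 0.195. The DNA replication genes deviated by -0.181, 0.128 and -0.058, and by -0.323, 0.351 and 0.083. The 8 listed cholangiocyte markers, those of bile duct cells, summed to 349, 485 and 385 CPM with vehicle and to 286, 506 and 381 CPM with MJ041. By this sum the lowest and highest libraries of each treatment were those of the mitosis genes, while by mean log2 level the highest of the 6 was KO vehicle replicate 2. Endothelial markers, at 236, 354 and 307 CPM with vehicle and 271, 317 and 292 CPM with MJ041, had the same order within each treatment. Hepatocyte markers also had that order by sum, at 21465, 25140 and 22064 CPM with vehicle and 22227, 23508 and 23092.5 CPM with MJ041. By mean log2 level the hepatocyte order with MJ041 was reversed, at 8.90, 8.83 and 8.87. By sum, stellate markers had the order of the mitosis genes with vehicle, at 61.1, 96.7 and 85.8 CPM. With MJ041 their sum had the reverse order, at 80.3, 70.6 and 75.2 CPM. Their mean log2 level had the order of the mitosis genes in both treatments. It was 1.458, 1.664 and 1.596 with vehicle and 1.722, 1.789 and 1.728 with MJ041. Kupffer markers summed to 470, 516 and 462 CPM with vehicle and to 475, 504 and 498 CPM with MJ041. These Kupffer sums followed the order of the mitosis genes only with MJ041. The mean log2 level of the Kupffer markers followed it in both treatments. It was 3.556, 3.941 and 3.837 with vehicle and 3.783, 3.978 and 3.899 with MJ041. The part of any of these cell types in the spread was not tested.

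**Figure D4:**
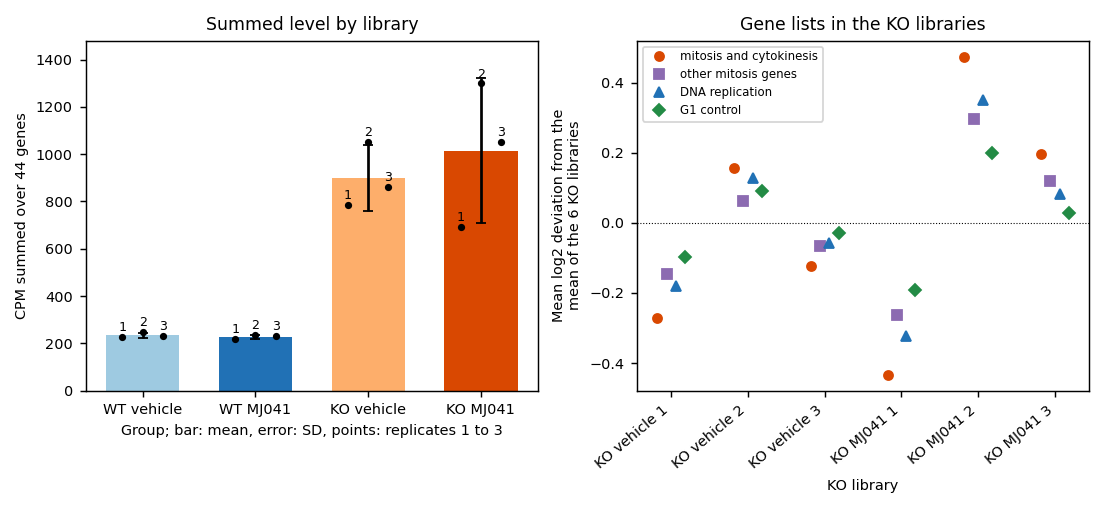
Left: CPM summed over the 44 genes by group (bar, mean; error bar, SD; points, replicates 1 to 3). Right: mean log2 deviation of each gene list from the mean of the 6 KO libraries, by KO library; all 4 lists are lowest in KO MJ041 replicate 1 and highest in KO MJ041 replicate 2.

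With vehicle, the summed markers of Kupffer, endothelial, stellate and bile duct cells overlapped between the genotypes. Summed over the 12 Kupffer cell markers the level was 244 to 494 CPM in WT and 462 to 516 CPM in KO with vehicle, and over the 12 endothelial markers 248 to 392 and 236 to 354 CPM. The 12 stellate cell and fibroblast markers summed to 57.8 to 70.6 and 61.1 to 96.7 CPM, and the 8 cholangiocyte markers to 305 to 535 and 349 to 485 CPM. Of the markers tested, 2 of 12 Kupffer, 1 of 12 endothelial, 3 of 9 stellate and 3 of 6 cholangiocyte markers rose, and 1, 1, 3 and 1 fell. Over all tested genes, 27.5% rose and 26.9% fell. The cholangiocyte sum is mostly Spp1, and the mean log2 level of those markers did not overlap: it was 2.33, 2.46 and 2.25 in WT and 3.26, 3.47 and 3.29 in KO with vehicle. The 3 that rose, Krt19, Tspan8 and Bicc1, were each over 4-fold higher. Alas2, the erythroid form of the first enzyme of haem synthesis, fell from 2.10, 2.21 and 2.37 CPM in WT to 0, 0.058 and 0.056 CPM in KO with vehicle (edgeR adjusted p = 1.8e-06). In the vehicle libraries the 8 lymphocyte and neutrophil markers summed to 6.03 to 9.83 CPM in WT, with S100a9 at 0 counts, and to 3.94 to 6.02 CPM in KO. With the level of stellate, endothelial and Kupffer markers as a covariate, 43 of the 44 genes were called higher in KO with vehicle and 44 with MJ041. The covariate was 1 mean log2 level pooled over these markers, so it does not tell those cell types apart. With MJ041, KO libraries lay above WT libraries in 3 of these sums: Kupffer markers at 475 to 504 CPM against 186 to 362, stellate markers at 70.6 to 80.3 against 35.5 to 61.7 and cholangiocyte markers at 286 to 506 against 150 to 278. Endothelial markers overlapped, at 271 to 317 and 166 to 287 CPM. The part of Kupffer, endothelial, stellate, bile duct or erythroid cells in the KO against WT difference was not tested with vehicle or with MJ041.

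Related gene lists gave the setting of the change. Of 97 other mitosis genes, 71 rose and 4 fell in KO with vehicle, beside 27.5% and 26.9% of all tested genes. The 97 had a median log2 fold change of 1.13. Psrc1, a spindle protein, rose by 3.49 ± 0.22, Iqgap3, a scaffold of proliferating cells, by 4.31 ± 0.32, and Hmmr, which acts at spindle poles, by 4.41 ± 0.34 (SE, n = 3). The 3 falls with the smallest adjusted p were in the anaphase-promoting complex: its subunits Anapc7 (-0.41) and Anapc2 (-0.24) and its late activator Fzr1 (-0.22). Among 51 DNA replication genes there were 40 that rose and 1 that fell (median 0.76). Rrm2, a subunit of ribonucleotide reductase, rose from 15.1 to 95.4 CPM, Tk1, thymidine kinase, from 3.03 to 22.7 CPM and Rpa1, which binds single-stranded DNA, from 64.3 to 138 CPM, while the licensing factor Cdt1 fell from 50.5 to 36 CPM.

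Among 25 G1 control genes there were 17 that rose and 2 that fell (median 0.55). The repressor E2f8 rose from 2.9 to 17 CPM. Among the CDK inhibitors, Cdkn1b (p27) rose from 22.7 to 44 CPM and Cdkn1c (p57) fell from 2.86 to 0.533 CPM. Ccnd1, which encodes cyclin D1, changed by 2.96 ± 0.09 and Ccng2, a cyclin linked to cell cycle arrest, by -0.77 ± 0.18. Of 10 tested subunits of the DREAM complex and E2F partners, the repressors and activators that act on late cell cycle promoters, 5 rose and 2 fell (median 0.15). Over all tested genes the shares were 27.5% and 26.9%. Tfdp1 and Tfdp2, which pair with E2F proteins, rose by 0.56 and 0.39, and E2f5 and the DREAM subunit Lin37 fell by 0.67 and 0.29 on the log2 scale. At least 4-fold increases were called for 26 of the 44 genes and for 3.07% of all tested genes. In the other lists they were called for 22 of 97 other mitosis genes, 3 of 51 replication genes, 4 of 25 G1 genes and 0 of 10 DREAM genes. CHR letters were found in 27 of 82 other mitosis genes with a promoter entry (32.9%), 8 of 41 replication genes (19.5%) and 5 of 21 G1 genes (23.8%). CCAAT was common in these lists as well, in 58.5%, 65.9% and 47.6% of their genes in the same order, beside 70.3% of the 37. At least 2 CCAAT were found in 31.7%, 34.1% and 23.8%, beside 43.2% of the 37.

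**Figure D5:**
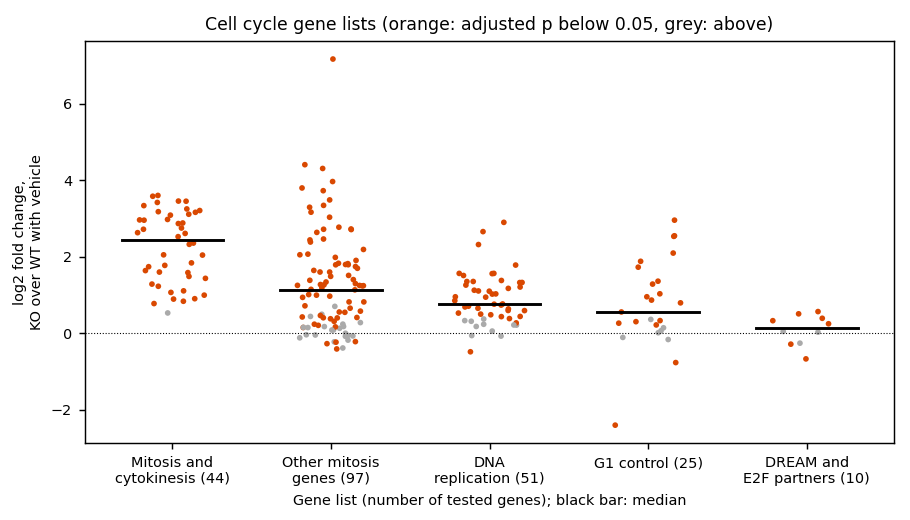
Log2 fold change of KO over WT with vehicle for each tested gene of 5 cell cycle lists (points; orange, adjusted p below 0.05; grey, above); black bars are medians. The medians step down from 2.44 for the 44 genes to 1.13, 0.76, 0.55 and 0.15. The highest point, Depdc1a, named here after its value was seen, had 0 counts in WT with vehicle and 55 in KO, so its fitted height is not a measured fold (setting WT to 3 counts over the group puts it at least 18.3-fold higher; the list median is 1.13 with it at that bound).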

How the data were processed

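RNA from 12 libraries was made into stranded libraries and read on an Element AVITI sequencer, per the labels' protocols. The deposited table holds raw counts per Ensembl gene, not normalized by the authors. Named in the submitters' processing notes are the genome mm39 and the tools STAR 2.7.10b, featureCounts, Trimmomatic 0.34, FastQC and DESeq2. Strand and multimapping settings are not given in the sources used here, so reads shared with near copies or with antisense genes cannot be told apart. Symbols matched 52081 of 55414 identifiers, and rows with no symbol took up to 0.274% of the counts in any library. Libraries held 16740761 to 17902832 counts.

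The counts were analysed in R 4.3.3. The main test was edgeR 4.0.16 (quasi-likelihood, TMM, low counts removed by filterByExpr at a minimum count of 10) on all 12 libraries at once, each group having its own coefficient, which leaves 8 residual degrees of freedom. DESeq2 1.42.0 served as an alternative. P-values were adjusted by Benjamini-Hochberg over the 14919 genes tested and called below 0.05. An SE was obtained from the F statistic as the absolute log2 fold change over the root of F. The interaction is the log2 response to MJ041 in KO cells less the one in WT cells. CPM is TMM-scaled, and exon lengths come from GENCODE M21. Chi-square tests of the counts in pairs of same-group libraries gave 4.39 to 14.6 per degree of freedom, so no pair agreed within sampling noise. The fit was also run on simulated counts with known changes in far fewer genes than were called here between the genotypes. That run does not cover scaling with as many changes as here. The result of 1 marker list is not reported here.

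The members, the gene lists and the settings were chosen with earlier results of these data known. All 44 members are named. Given in full are the member of each role with the smallest adjusted p for KO against WT with vehicle and each member not called there. Of each other list, the 3 genes with the smallest adjusted p and up to 3 called lower are named, and for MJ041 the 3 members with the smallest p. Alternatives were DESeq2, library totals, upper quartile scaling, no low-count filter, only the groups compared, a marker covariate, the replicate block, and leaving out each library or WT MJ041 replicates 1 and 2 together.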

Additional observations from a re-analysis of the deposited data

How the results depend on the processing

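Over 20 alternative settings, 42 to 44 of the 44 genes were called higher in KO with vehicle and 43 or 44 with MJ041, and 0 were called lower. The median log2 fold change stayed within 2.27 to 2.55 with vehicle and 2.52 to 2.93 with MJ041. For MJ041 in WT, MJ041 in KO and the interaction, 0 of the 44 were called in any setting run. Leaving out 1 library at a time gave medians of -0.09 to -0.05, -0.06 to 0.40 and 0.06 to 0.51 for these comparisons. With vehicle, Ccnb2 passed under 4 settings: no low-count filter (adjusted p = 0.033), upper quartile scaling (0.049), the replicate block (0.018) and without KO vehicle replicate 1 (0.011). Mybl2 was lost without KO vehicle replicate 3.

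Upper quartile scaling moved the median of all genes in KO against WT with MJ041 from 0.02 to 0.12 and the share of higher calls from 49.3% to 59.8%. For MJ041 in WT that share was 53.8%, and 35.7% with library totals and 38.0% with upper quartile scaling.

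Whether shared replicate numbers pair the libraries is unclear, and they were not treated as pairs: correlations of same-numbered libraries' deviations ran from -0.099 to 0.499, not all above 0.1, and 9 of 12 libraries correlated best with their own number. The replicate block called 44 genes higher in KO with vehicle and 44 with MJ041, and 0 in the other comparisons. Cdc25c, at 26 counts in WT with vehicle, is the member most limited by depth.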
